A study of Mus musculus with 3 samples.

Results

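Integrins, laminins and collagen IV chains are the genes by which a cell holds its basement membrane and by which that membrane is built. Here they were taken as the protein-coding rows of the deposited GFI1 and GFI1B lists whose symbol fits the naming pattern of integrin alpha and beta subunits, laminin chains or collagen IV chains. The pattern took 25 of the 6036 protein-coding genes in either list. One of them, Itgb3bp, encodes a centromere protein named for binding an integrin, and it was left out of the family counts, which leaves 24 genes. The same pattern finds 44 family genes among the 21900 protein-coding genes of RefSeq, so 20 family genes were in neither list. As a share, 24 of 44 is 54.5%, against 26.4% of all protein-coding genes in at least 1 list.

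The series compared GFI1:DAM, GFI1B:DAM and a DAM control in mouse haemogenic endothelium, which is endothelium that gives rise to blood. In DamID, a DNA adenine methyltransferase fused to a protein methylates GATC sites near the places where that protein sits. Each construct sat in the doxycycline-inducible docking locus at Hprt in AinV18 embryonic stem cells, so all groups carry an inducible DAM and all stem from a line modified at Hprt. FLK1-positive cells came from embryoid bodies of day 3.25, and the TIE-2 and c-KIT population was sorted at day 2 of culture. Each fusion is 1 sample that holds 2 biological replicates together, so no value below has an SD and no difference between the fusions was tested. The lists give places of DAM marking and no expression, so the labelled cell type could not be checked against its markers. Library depth is unknown, and values of the unfused DAM are not used here.

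Integrins are dimers of an alpha and a beta subunit that cross the plasma membrane and bind matrix outside and the actin cytoskeleton, through adaptor proteins, inside. Laminins are trimers of an alpha, a beta and a gamma chain, and with the collagen IV network they form the sheet on which endothelium rests. Emerging blood cells round up and leave the endothelial layer, and the integrin subunit CD41, the product of Itga2b, is a known early marker of them.

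A gene was called listed for a fusion where the authors assigned it at least 1 interval. Of the 44 family genes, the GFI1 list held 20 (45.5%) and the GFI1B list 13 (29.5%), where the GFI1 list held 18.3% and the GFI1B list 19.0% of all protein-coding genes. For both fusions 9 family genes (20.5%) were listed, against 10.9% of all protein-coding genes. GFI1 alone had 11 family genes and GFI1B alone had 4, while 7.36% of all protein-coding genes were in the GFI1 list only and 8.08% in the GFI1B list only. The family shares of each list and of both lists stood above their backgrounds, while the 4 of 44 genes of GFI1B alone lay near the 8.08%. The family genes are long, however, with a median of 68.0 kb against 17.1 kb over all protein-coding genes, and long genes are listed more often.

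The family was therefore also set beside genes of like length. In the GFI1 list the family share lay above that of all protein-coding genes in each of the 5 length classes. From 25 to 50 kb and from 200 kb upward it lay near that share, on few genes. It was 37.5% of 8 genes against 8.76% below 25 kb, 2 of 8 against 21.3% from 25 to 50 kb, and 45.5% of 11 against 33.1% from 50 to 100 kb. From 100 to 200 kb it was 58.3% of 12 against 45.9%, and from 200 kb upward 60.0% of 5 against 57.1%. The widest gap, below 25 kb, came from 3 short integrin genes, Itga5, Itga7 and Itgb7. In the GFI1B list the family share was 12.5% against 9.77% below 25 kb, 0 of 8 genes against 21.3% from 25 to 50 kb, and 27.3% against 34.5% from 50 to 100 kb. From 100 to 200 kb it was 58.3% against 47.2%, and from 200 kb upward 40.0% against 53.7%. For GFI1B the family was thus listed at a share near that of other genes of its length, above it in 2 classes and below it in 3.

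**Figure D1:**
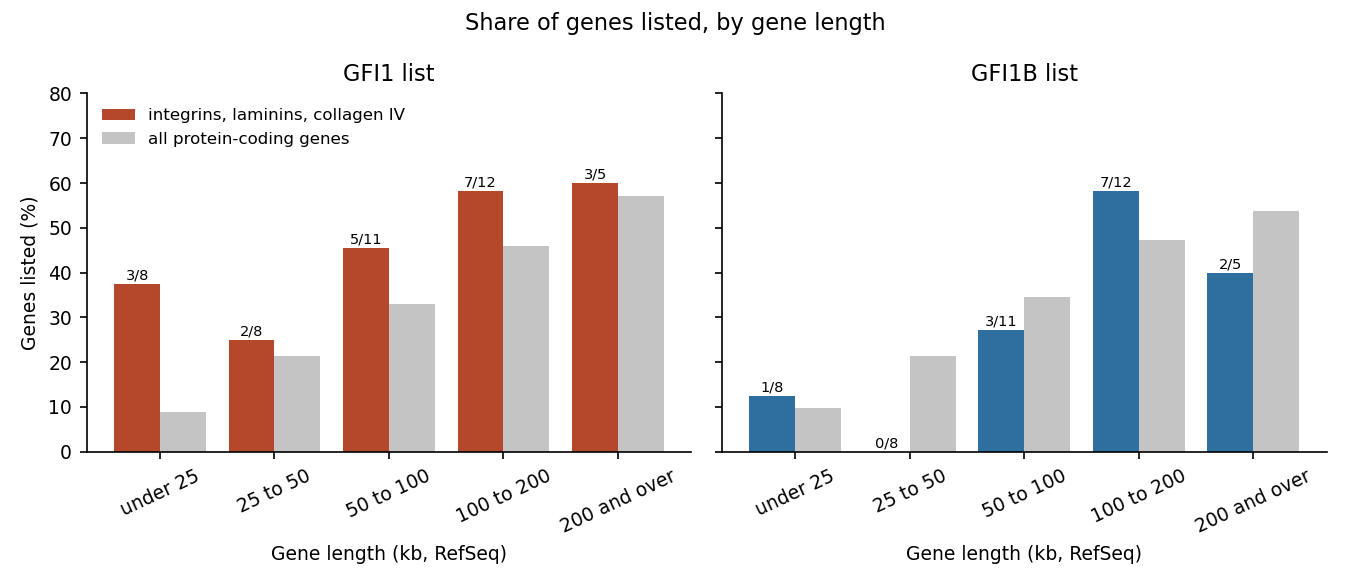
Share of genes listed (%, vertical axis) by gene length in kb (horizontal axis) for the GFI1 list (left) and the GFI1B list (right), with integrin, laminin and collagen IV genes in colour and all protein-coding genes in grey; the fraction above a bar is listed over all family genes of that class. The coloured bar is the taller one in all 5 classes for GFI1 and in 2 of 5 for GFI1B. For GFI1 the bars are close in height from 25 to 50 kb and from 200 kb upward.

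The counts of the fusions lay furthest apart for integrins. Of 27 integrin genes, the GFI1 list held 11 (40.7%) and the GFI1B list 4 (14.8%), with 3 (11.1%) shared. Over all protein-coding genes the shares were 18.3%, 19.0% and 10.9%, without matching for gene length. The integrin share was thus not above the background for GFI1B, where it rests on 4 genes, and lay near it for both fusions. Of 11 laminin genes, each list held 6 (54.5%), and 5 of them were the same genes. Of 6 collagen IV genes, each list held 3 (50%), with only Col4a1 shared. The gap between the fusions in the whole family, 20 against 13, was thus the gap in integrins, 11 against 4, and whether it exceeds the spread between replicates could not be tested.

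**Figure D2:**
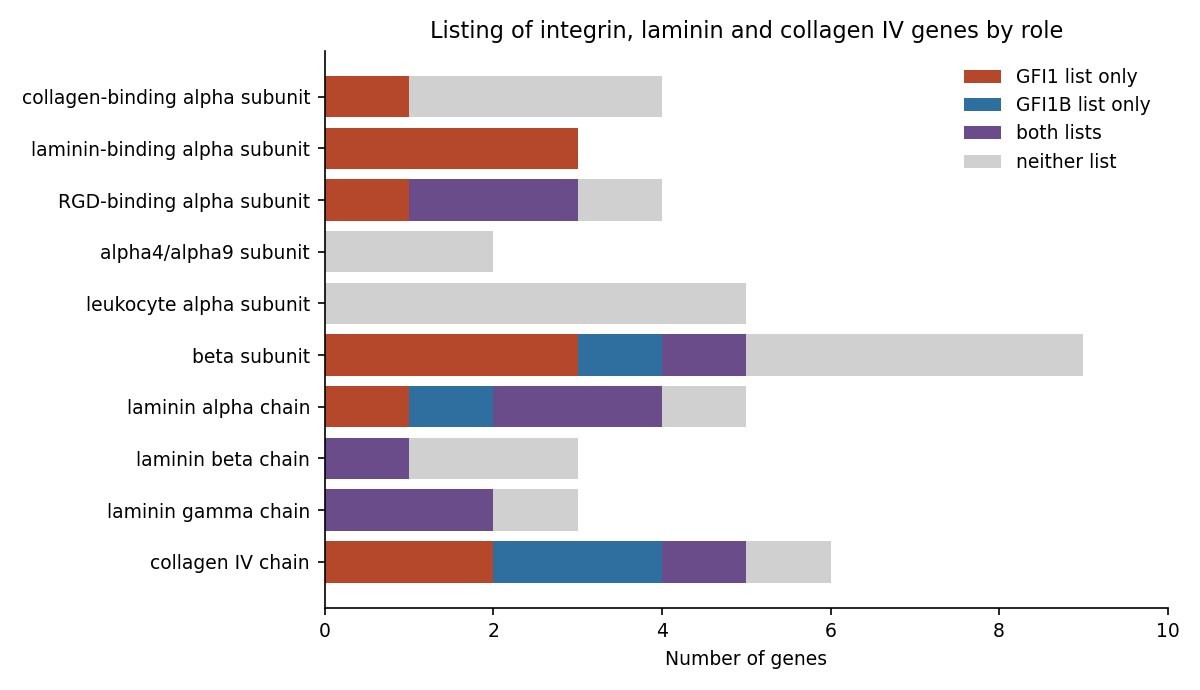
Number of genes (horizontal axis) of each role that were in the GFI1 list only, in the GFI1B list only, in both lists or in neither. The 3 laminin-binding alpha subunits were all in the GFI1 list only, and the 5 leukocyte alpha subunits were in neither list.

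Among alpha subunits, 7 of 18 (38.9%) were listed for GFI1 and 2 of 18 (11.1%) for GFI1B, against 18.3% and 19.0% of all protein-coding genes. Both GFI1B genes were also listed for GFI1. The laminin receptors Itga3, Itga6 and Itga7 were all listed for GFI1 and not for GFI1B. Itga3 had 49 reads in 1 interval of 701 bp, or 69.9 reads per kb of interval, which was percentile 79.96 of the protein-coding rows of the GFI1 list. Itga6, whose product pairs with beta1 or beta4, had 31 reads at 47.6 reads per kb (percentile 48.4), and its interval was also listed under the gene model Gm13662. Itga7, the laminin receptor subunit best known from muscle, had 44 reads at 44.0 reads per kb (percentile 38.9). By density the 3 genes therefore ran from below the middle of the list to its upper part, each from a single interval. By read number they stood low, at percentile 26.3 for Itga3, 6.46 for Itga6 and 20.5 for Itga7.

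The alpha subunits that bind the RGD motif of fibronectin, vitronectin and related ligands held the integrin genes with the most reads in each list. Itgav (ENSMUSG00000027087), the alpha-v subunit, had 448 reads in 3 intervals in the GFI1 list (46.2 reads per kb, percentile 44.5) and 902 reads in 4 intervals in the GFI1B list (105 reads per kb, percentile 91.0). In mm9 the GFI1 intervals were chr2:83566518-83569368, chr2:83580068-83584768 and chr2:83597718-83599868. The GFI1B intervals were chr2:83563922-83569672, chr2:83579972-83581122, chr2:83598972-83599822 and chr2:83628022-83628872. All 3 GFI1 intervals overlapped a GFI1B interval, by 2851, 1055 and 851 bp, and the fourth GFI1B interval lay 28.2 kb from the nearest GFI1 interval. By read number Itgav stood at percentile 97.6 for GFI1 and 99.1 for GFI1B. Its intervals covered 9703 bp in the GFI1 list and 8604 bp in the GFI1B list. The second and the third interval of each fusion were listed under the gene model Gm13684 as well.

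The Itgav promoter window of RefSeq is shown because DamID reads only GATC sites and because Itgav had more reads than any other family gene in the GFI1B list. It covers 250 bases before the start of the gene and 50 after it on build GRCm38.p6, at chr2:83724147-83724446, plus strand. Capitals mark the DAM site GATC and the core AATC bound by GFI1 proteins, which reads GATT on the other strand.
Itgav: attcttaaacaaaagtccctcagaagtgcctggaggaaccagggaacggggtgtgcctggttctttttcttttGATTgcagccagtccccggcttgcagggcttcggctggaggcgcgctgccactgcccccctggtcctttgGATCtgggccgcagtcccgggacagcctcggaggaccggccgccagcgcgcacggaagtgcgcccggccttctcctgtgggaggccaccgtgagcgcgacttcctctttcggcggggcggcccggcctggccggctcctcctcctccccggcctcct
The window holds 1 GATC and 1 AATC. The deposited intervals are on mm9 and the window is on another build, so whether an interval covers it is not given here.

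Itga5, the alpha subunit of the main fibronectin receptor, was marked at the same 2 places by both fusions. It had 216 reads at 53.3 reads per kb (percentile 60.5) in the GFI1 list and 261 reads at 69.6 reads per kb (percentile 72.0) in the GFI1B list. The GFI1 intervals chr15:103200320-103201970 and chr15:103213420-103215820 (mm9) overlapped the GFI1B intervals chr15:103201000-103202100 and chr15:103212750-103215400 by 971 and 1981 bp. Itga8, which pairs with beta1, had the highest density of all family genes in the GFI1 list, with 171 reads in 2 intervals at 87.6 reads per kb (percentile 89.2). It was not listed for GFI1B, whose nearest intervals were 110.9 and 88.2 kb away. Of the collagen receptors Itga1, Itga2, Itga10 and Itga11 only Itga11 was listed, for GFI1, with 81 reads at 60.0 reads per kb (percentile 71.4).

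Among the alpha subunits, 7 were grouped here as subunits of blood cells, a choice made with earlier results of these data known. All 7 were in neither list, as were 73.6% of all protein-coding genes. They were the leukocyte subunits Itgal, Itgam, Itgax, Itgad and Itgae, the platelet and early blood subunit Itga2b, and Itga4, a subunit of blood progenitors and lymphocytes. Their relative Itga9 was in neither list too, and so were Itgb2, the beta subunit shared by leukocyte integrins, and Itgb2l, related to it in sequence. Not every integrin gene of blood cells was absent, as Itgb3 of platelets and Itgb7 of lymphocyte homing receptors were listed for GFI1. The alpha subunits Itga5, listed for both fusions, and Itga6, listed for GFI1, were left out of the group. Its count therefore depends on how the group was drawn. The 7 alpha subunit genes are 16.6 to 77.7 kb long, and 4 of them are below 50 kb. Of all protein-coding genes 85.5% below 25 kb, 68.7% from 25 to 50 kb and 53.9% from 50 to 100 kb were in neither list, so most genes of these lengths were absent too. Absence from a list does not show that a gene was unbound.

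Beta subunits were listed 4 of 9 times (44.4%) for GFI1 and 2 of 9 times (22.2%) for GFI1B, against 18.3% and 19.0% of all protein-coding genes. Itgb1, the common partner of most alpha subunits, was listed for GFI1 with 210 reads at 64.6 reads per kb (percentile 75.9) and not for GFI1B. Its intervals chr8:131207779-131208479 and chr8:131264479-131267029 (mm9) spanned 59.3 kb, more than the 47.9 kb of the gene in RefSeq, so at least 1 of them reached outside a gene of that length. The nearest GFI1B intervals lay 192 and 249 kb away. Itgb3, the beta subunit of platelets and of angiogenic endothelium, had 65 reads at 72.1 reads per kb for GFI1 (percentile 81.6). Itgb7, of lymphocyte homing receptors, had 64 reads at 51.2 reads per kb for GFI1 (percentile 56.4).

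Itgb5, a partner of alpha-v, was listed for both fusions and ranked highest of the family in the GFI1B list. It had 141 reads at 64.0 reads per kb (percentile 75.3) for GFI1 and 241 reads at 109 reads per kb (percentile 91.9) for GFI1B, each from 2 intervals. One pair overlapped by 563 bp, and the other intervals lay 5.09 kb (GFI1) and 6.61 kb (GFI1B) from the nearest interval of the other fusion. Itgb6, the epithelial partner of alpha-v, was listed for GFI1B, with 211 reads at 55.5 reads per kb (percentile 53.3), and not for GFI1. Itgb4 and Itgb8 were in neither list.

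Read as dimers, the listed subunits made 9 of the 24 known integrins complete for GFI1 and 2 of 24 for GFI1B. Of the 9 for GFI1, 7 rested on Itgb1 alone as their beta subunit, joined with Itga3, Itga5, Itga6, Itga7, Itga8, Itga11 or Itgav, and the others paired Itgav with Itgb3 or Itgb5. For GFI1B the complete pairs were Itgav with Itgb5 and Itgav with Itgb6. The vitronectin receptor of Itgav and Itgb5 was thus the 1 dimer with both genes in both lists. Neither subunit was listed for 4 dimers in the GFI1 list and for 18 in the GFI1B list. The dimers share subunits and are not independent of each other, and no share over all genes exists for such pairs.

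Among laminins, the genes of the classical trimer of Lama1, Lamb1 and Lamc1 chains were all listed for both fusions. Lamc1 (ENSMUSG00000026478), the gamma chain of most laminins, was the strongest laminin by read number in both lists, with 256 reads at 74.2 reads per kb (percentile 82.8) for GFI1 and 388 reads at 103 reads per kb (percentile 90.6) for GFI1B. Of its 2 GFI1 intervals, chr1:155120084-155121934 (mm9) held the whole GFI1B interval chr1:155120634-155121384, of 751 bp, and the other GFI1B interval lay 41.5 kb from any GFI1 interval. Lamb1 had 68 reads at 52.3 reads per kb (percentile 58.4) for GFI1 and 94 reads at 56.9 reads per kb (percentile 55.6) for GFI1B. Its single GFI1 interval, chr12:31951288-31952588 (mm9), lay wholly inside the GFI1B interval chr12:31951148-31952798. Lama1, an early embryonic alpha chain, had 47 reads at 55.2 reads per kb (percentile 64.0) for GFI1 and 46 reads at 48.4 reads per kb (percentile 40.3) for GFI1B, with single intervals that overlapped by 557 bp.

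Lama3, the alpha chain of epithelial laminin, had 112 reads at 72.2 reads per kb (percentile 81.7) for GFI1 and 217 reads at 78.9 reads per kb (percentile 80.1) for GFI1B. Its GFI1 interval of 1551 bp shared 1517 bp with a GFI1B interval of the same width, and GFI1B had a further interval 75.8 kb from any GFI1 interval. Lama2, the alpha chain of muscle, was listed for GFI1 (80 reads, 76.1 reads per kb, percentile 84.2) and not for GFI1B. Lama4, the alpha chain of vascular laminin, was listed for GFI1B (40 reads, 53.3 reads per kb, percentile 49.5) and not for GFI1. Of the 12 laminin trimers considered, 2 had every gene listed for GFI1 and 2 for GFI1B. They joined Lamb1 and Lamc1 with Lama1 or Lama2 for GFI1, and with Lama1 or Lama4 for GFI1B. The counts depend on which trimers were considered. Lama3 joined with Lamb1 and Lamc1 was not among the 12, and all of these genes were in both lists. Lama5, the other vascular alpha chain, and Lamb2, Lamb3 and Lamc3 were in neither list.

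**Figure D3:**
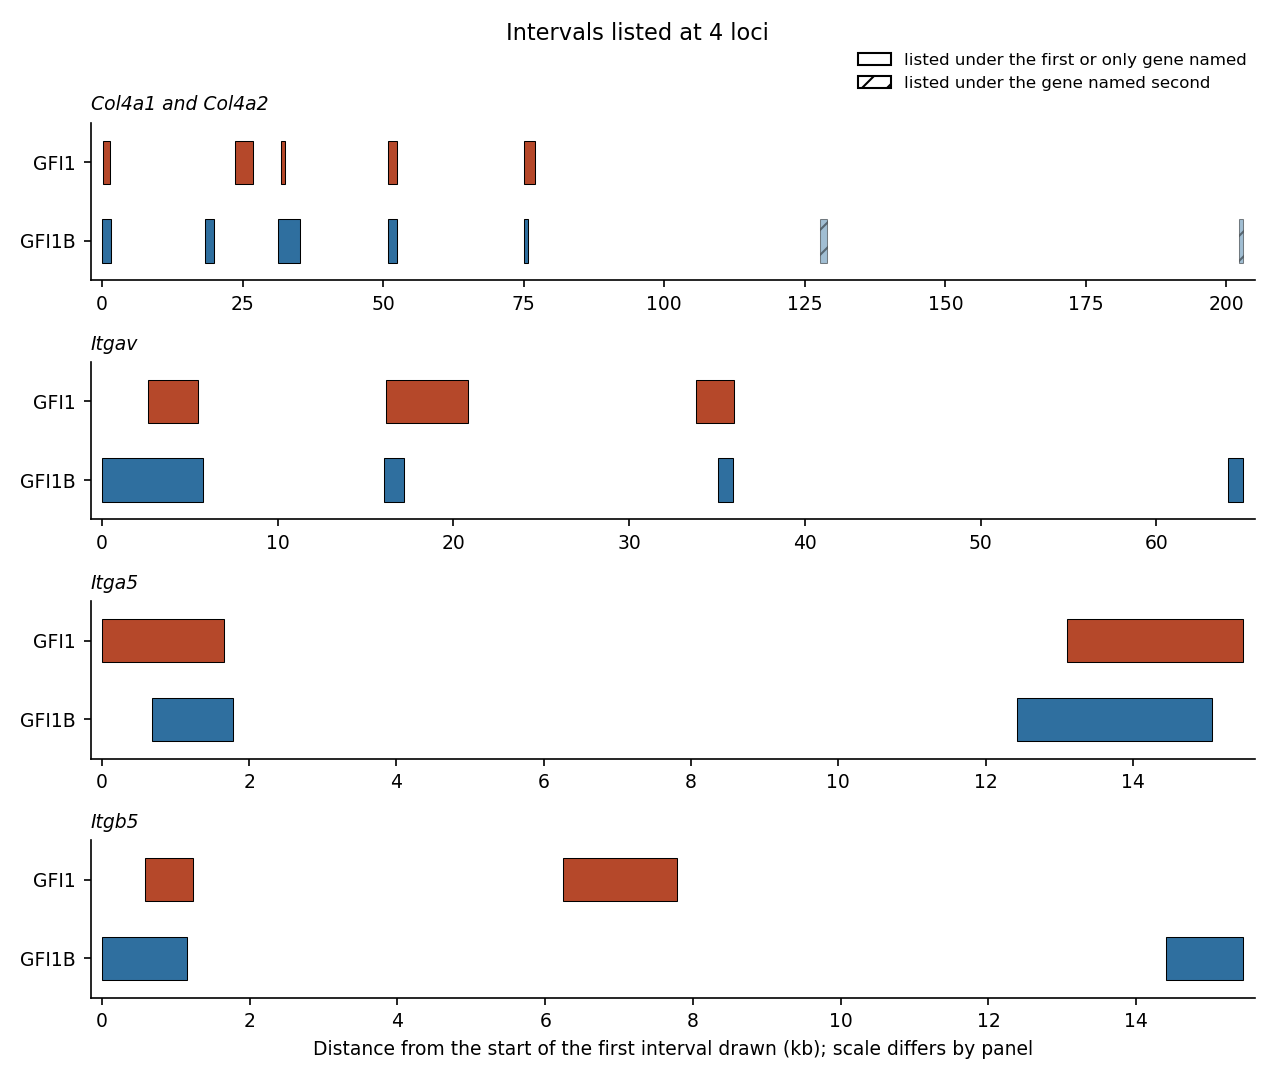
Intervals listed for GFI1 (upper row of each panel) and GFI1B (lower row) at Col4a1 and Col4a2, Itgav, Itga5 and Itgb5, drawn by distance in kb from the first interval of the panel; hatched, paler boxes are listed under Col4a2. Of 5 Col4a1 intervals 4 overlap between the fusions, the Col4a2 intervals are GFI1B only, and both Itga5 intervals overlap.

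The genes of the common collagen IV network, Col4a1 and Col4a2, lie head to head and were marked unequally. Col4a1 (ENSMUSG00000031502) carried 5 intervals in each list, the most of any family gene, with 469 reads at 54.5 reads per kb (percentile 62.6) for GFI1 and 505 reads at 55.5 reads per kb (percentile 53.3) for GFI1B. By read number it stood at percentile 97.9 for GFI1 and 96.2 for GFI1B. The intervals spanned 76.8 kb for GFI1 and 75.8 kb for GFI1B of a gene of 114 kb, and 4 of the 5 overlapped between the fusions. The closest match was chr8:11284729-11286229 (mm9) for GFI1 and chr8:11284725-11286225 for GFI1B, which shared 1497 bp. The intervals chr8:11257379-11260729 for GFI1 and chr8:11252025-11253675 for GFI1B, 3.70 kb apart, did not overlap. Col4a2 was listed for GFI1B, with 89 reads in 2 intervals at 43.4 reads per kb (percentile 29.1), and not for GFI1, whose nearest intervals lay 50.7 and 19.3 kb away.

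The promoter windows of this pair in RefSeq (GRCm38.p6) are shown because the genes share a stretch of promoter while only Col4a1 was listed for GFI1. Col4a1 lies at chr8:11312777-11313076 on the minus strand and Col4a2 at chr8:11312555-11312854 on the plus strand. Capitals mark the 78 bases that both windows hold, read from opposite strands.
Col4a1: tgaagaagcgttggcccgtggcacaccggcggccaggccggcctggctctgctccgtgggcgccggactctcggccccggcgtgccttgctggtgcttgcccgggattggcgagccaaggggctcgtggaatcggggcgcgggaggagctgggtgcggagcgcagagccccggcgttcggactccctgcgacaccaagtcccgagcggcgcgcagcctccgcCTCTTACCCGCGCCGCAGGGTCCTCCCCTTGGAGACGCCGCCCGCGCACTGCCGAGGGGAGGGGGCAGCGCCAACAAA
Col4a2: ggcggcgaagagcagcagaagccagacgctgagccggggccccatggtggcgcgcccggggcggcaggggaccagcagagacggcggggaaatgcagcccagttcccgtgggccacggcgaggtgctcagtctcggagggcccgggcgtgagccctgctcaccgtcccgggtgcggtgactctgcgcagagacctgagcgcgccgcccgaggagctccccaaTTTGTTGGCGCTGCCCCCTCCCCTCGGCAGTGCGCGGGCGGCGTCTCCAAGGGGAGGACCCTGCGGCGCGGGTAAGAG
Neither window holds a GATC. Over all family genes with an entry, 17 of 32 windows (53.1%) held GATC, against 46.6% of the windows of all protein-coding genes, and 24 of 32 held AATC on either strand, against 70.8%. The longer form AAATCAC, which contains AATC, was in none of the 32 windows and in 2.88% of all windows. These shares lay near the background, and a match is no evidence of binding.

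The other collagen IV genes were each listed for at most 1 fusion. Col4a5, a chain of kidney and other specialised basement membranes, was listed for GFI1 with 178 reads in 2 intervals at 79.0 reads per kb (percentile 85.7). Its neighbour Col4a6 was listed for GFI1B with 65 reads at 81.2 reads per kb (percentile 81.6), and the nearest of these intervals lay 144 kb apart. Col4a4 had the lowest density of the family in the GFI1 list, with 30 reads at 30.0 reads per kb (percentile 7.23), and Col4a3 was in neither list. Of the 3 collagen IV trimers only that of Col4a1 and Col4a2 had all its genes in a list, that of GFI1B.

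Within each list the family ranked above the middle by read density. The 20 GFI1 genes had a median of 58.8 reads per kb (range 30.0 to 87.6) against 48.3 over all protein-coding rows, and 16 of them lay above that median. The 13 GFI1B genes had a median of 59.8 reads per kb (43.4 to 109) against 53.6, and 10 of them lay above it. Median percentiles were 69.7 for GFI1 and 59.9 for GFI1B. The 9 shared genes had a median of 55.2 reads per kb for GFI1, and of 69.6 for GFI1B. The genes listed for a single fusion had medians of 64.6 (GFI1) and 54.4 (GFI1B). The shared genes thus had the lower median for GFI1 and the higher one for GFI1B. Densities are not scaled between lists, so only ranks inside a list can be read.

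**Figure D4:**
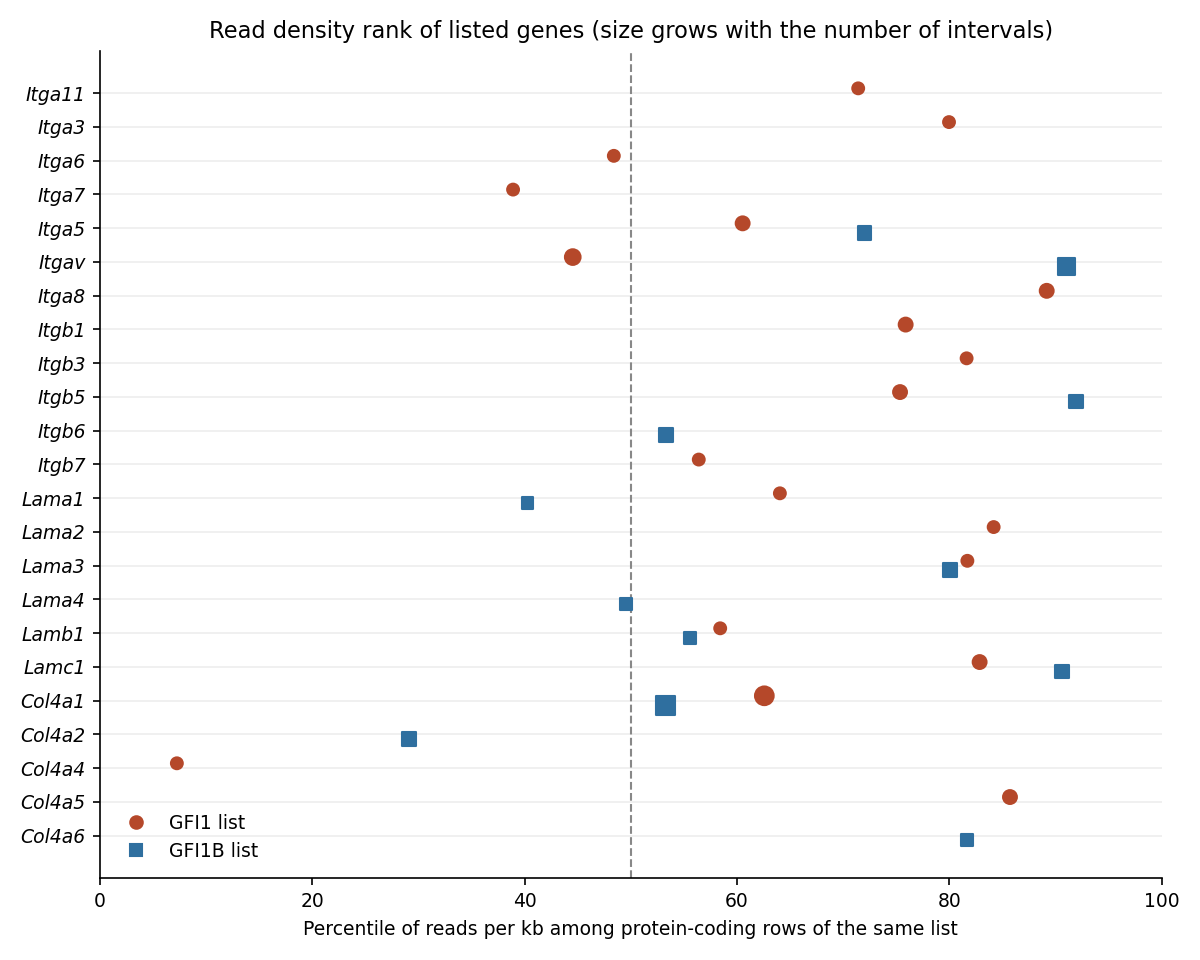
Percentile of reads per kb among the protein-coding rows of the same list (horizontal axis) for listed genes, with circles for GFI1, squares for GFI1B and symbol size growing with the number of intervals; the dashed line is percentile 50. Points run from percentile 7.23 (Col4a4, GFI1) to 91.9 (Itgb5, GFI1B).

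Several family genes were marked at more than 1 place. Of the 13 GFI1B genes 9 (69.2%) had 2 or more intervals, against 30.9% of all protein-coding rows, and of the 20 GFI1 genes 8 (40.0%) did, against 27.9%. These shares were not compared at like gene length. The listed family genes had median lengths of 120 kb (GFI1B) and 95.4 kb (GFI1), against 17.1 kb over all protein-coding genes of RefSeq. The family held 32 GFI1 intervals with a median width of 1326 bp, against 1201 bp over all protein-coding rows, and 27 GFI1B intervals with a median of 1201 bp, against 1351 bp. Itgav had the widest interval in each list, 4701 bp for GFI1 and 5751 bp for GFI1B. Of the family intervals 3 (9.38%) for GFI1 and 2 (7.41%) for GFI1B were listed under a further gene, all at Itgav or Itga6, against 4.39% and 5.59% of the intervals of all protein-coding rows.

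By place, 15 of 32 GFI1 intervals (46.9%) overlapped a GFI1B interval by at least 1 bp, against 40.3% of the GFI1 intervals of all protein-coding rows. Likewise 15 of 27 GFI1B intervals (55.6%) overlapped a GFI1 interval, against 36.8%. All of these lay at the 9 genes in both lists, which are 9 of 20 family genes in the GFI1 list and 9 of 13 (69.2%) in the GFI1B list. Of the 9, 8 (88.9%) had overlapping intervals of their own, against 77.2% of the 2472 protein-coding genes in both lists. These shares rest on the rule of 1 bp. Where the overlap had to cover 50% of each interval, 7 of 32 GFI1 intervals (21.9%, against 29.3%) and 7 of 27 GFI1B intervals (25.9%, against 26.8%) overlapped. By that rule 5 of the 9 genes (55.6%, against 60.3%) had overlapping intervals. None of the 3 family shares then lay above its background, and those of GFI1B intervals and of genes lay near it.

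At the 11 genes of GFI1 alone, none of 14 intervals overlapped a GFI1B interval of any gene, and the nearest lay 34.0 to 1577 kb away. At the 4 genes of GFI1B alone, none of 6 intervals overlapped a GFI1 interval, and the nearest lay 19.3 to 564 kb away. Over all protein-coding genes listed for a single fusion, 99.3% of the GFI1 and 99.1% of the GFI1B intervals did not overlap either. The median gap was 137 kb for the family and 126 kb for all such genes in the GFI1 list, and 78.9 and 112 kb in the GFI1B list. The lack of overlap at these family genes was thus near the background.

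The proteins that link integrins to actin were listed at a higher share than all protein-coding genes for both fusions. Of 35 adhesion adaptor and kinase genes, 13 (37.1%) were in the GFI1 list and 16 (45.7%) in that of GFI1B, 11 of them in both, against backgrounds of 18.3%, 19.0% and 10.9%. These genes too are long, with a median of 69.1 kb, and from 50 to 100 kb all protein-coding genes were listed at 33.1% for GFI1 and 34.5% for GFI1B. With rows at or above the median density of the list, 7 of the 35 genes counted for GFI1, against 9.16% of all protein-coding genes. Ptk2, which encodes focal adhesion kinase, had 604 reads in 4 intervals at 77.4 reads per kb (percentile 85.1) for GFI1 and 816 reads in 4 intervals at 143 reads per kb (percentile 96.1) for GFI1B, and 3 of the 4 overlapped between the fusions. The strongest in the GFI1 list were Tns3 (tensin 3, 137 reads per kb), Parva (alpha-parvin, 119) and Rap1a (a small GTPase that activates integrins, 106), followed by Ptk2, Tln2 (talin 2, 70.7) and Actn4 (an actinin, 69.2). In the GFI1B list they were Rsu1 (a partner of the adaptor PINCH1, 286 reads per kb), which was not listed for GFI1, then Ptk2, Tln2 (105), Actn1 (93.0), Tns3 (87.6) and Lims1 (PINCH1 itself, 82.7). Tln1 and Fermt2 (kindlin 2), which bind beta tails to activate integrins, were listed for GFI1B at 43.6 and 59.9 reads per kb and not for GFI1.

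Of 39 matrix ligand and other basement membrane genes, the GFI1 list held 14 (35.9%) and the GFI1B list 12 (30.8%), 10 of them shared. These shares lay above the 18.3% and 19.0% of all protein-coding genes. At the median length of the group, 62.7 kb, they were near those of genes of 50 to 100 kb, 33.1% for GFI1 and 34.5% for GFI1B. With rows at or above the median density, the GFI1 list gave 4 (10.3%, where all protein-coding genes gave 9.16%) and the GFI1B list 6 (15.4%, where they gave 9.48%). In the GFI1 list they stood low, at a median of 38.2 reads per kb against 48.3 over all protein-coding rows, and in the GFI1B list at 55.9 against 53.6. Fn1, the fibronectin gene and ligand of the Itga5 receptor, had 141 reads in 1 interval at 55.3 reads per kb (percentile 64.1) for GFI1 and 336 reads in 3 intervals at 62.2 reads per kb (percentile 63.3) for GFI1B. Fbn1, the fibrillin gene, had 435 reads at 59.6 reads per kb for GFI1 and 555 reads at 82.2 reads per kb for GFI1B, with 3 of 4 intervals overlapping in each list. Next in the GFI1 list were Thbs1 (thrombospondin 1, 55.2 reads per kb), Egfl7 (an endothelial matrix protein, 53.8), Smoc2 (46.9) and Nid1 (nidogen 1, which bridges laminin and collagen IV, 41.5). In the GFI1B list Vcam1, which encodes the endothelial ligand of the Itga4 integrin, led with 99.3 reads per kb and was not listed for GFI1, and Fbn1, Egfl7 (66.2), Col18a1 (65.8), Fn1 and Fras1 (59.3) followed. The interval of Egfl7 was listed under a further gene in both lists.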

How the data were processed

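DNA marked by DAM was sequenced in 3 samples, and the 2 deposited gene lists, 1 per fusion, were analysed. Per the file headers the authors used BayesPeak and, for GFI1B, a method written SS at a threshold of 0.05, merging lanes and subtracting control reads. The intervals of both lists are named SS intervals. The GFI1 header breaks off, so its threshold and subtraction are unknown, and no source used here names the aligner. The submitters' processing notes name build mm9. Read numbers per gene, as deposited, were taken as a score because subtraction of control reads is not settled. The deposited reads per kb of interval are a signal without scaling to library size. Lists were assigned to fusions by worksheet name.

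Rows were matched to RefSeq (GRCm38.p6) by symbol, then by a synonym held by 1 gene: 4099 (98.5%) of GFI1 and 4270 (98.3%) of GFI1B protein-coding rows. RefSeq gave names, lengths and promoter windows, of 29 of the 44 family genes. Its coordinates were not mixed with mm9. Overlap means at least 1 bp. Percentiles are shares of protein-coding rows at or below a value. With 1 pooled sample per fusion no test was made. Members and lists were chosen with earlier results of these data known, and the 5 length classes after the lists were seen. Named genes are all members but 1, which is not reported here and stays in the counts, and up to 6 genes per other list and fusion by reads per kb, with Tln1 and Fermt2 added after their values were seen. Alternatives were other row filters, overlap rules and ranks. Overlap and percentile steps were tested on simulated intervals. Python 3.11.15 and pandas 2.3.3 were used.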

Additional observations from a re-analysis of the deposited data

How the results depend on the processing

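Of 43 alternative values, 31 stayed within 1.5 times the reported count or within the 95% binomial interval of the reported percentile, and 12 did not. With only rows in the top 25% of their list by reads per kb, 9 family genes (20.5%) counted for GFI1, 5 (11.4%) for GFI1B and 3 (6.82%) for both. Over all protein-coding genes the shares under that filter were 4.59%, 4.72% and 1.45%, so the counts fell while the family shares stayed above the background. With an overlap of 50% of each interval, 7 GFI1 (21.9%) and 7 GFI1B intervals (25.9%) overlapped. By that rule 5 of the 9 genes in both lists (55.6%) had overlapping intervals. The backgrounds were 29.3%, 26.8% and 60.3%. None of these shares lay above its background, and those of GFI1B intervals and of genes lay near it, where the reported shares lay above theirs. Ranked by read number, the median percentile was 57.4 for GFI1 and 81.6 for GFI1B, which turns round the order of the fusions. Ranked among all rows it was 68.1 for GFI1, against the reported 69.7, a small shift that still fell outside the binomial interval. That interval therefore does not measure the spread of a median over the few family genes. With only rows at or above the list's median density, adaptor genes listed for GFI1 numbered 7, and matrix genes numbered 4 for GFI1 and 6 for GFI1B, against 9.16% and 9.48% of all protein-coding genes. The stricter rules pass fewer rows and overlaps over all protein-coding genes too, and the cause of the changes in count and in rank was not tested. Counting Itgb3bp, an alternative chosen after seeing the data, gave 14 for GFI1B. No paired analysis was possible because each fusion has 1 pooled sample. Depth is unknown.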

Other observations

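Other collagen genes, a group chosen after the lists were seen, were listed 10 of 38 times for GFI1 and 10 of 38 times for GFI1B, 5 of them for both. That is 26.3% for each fusion, against 18.3% and 19.0% of all protein-coding genes, at a median length of 106 kb, and genes of 100 to 200 kb were listed at 45.9% for GFI1 and 47.2% for GFI1B. Col3a1, the fibrillar collagen gene of vessels and mesenchyme, had 259 reads in 1 interval at 259 reads per kb for GFI1B (percentile 99.2) and was not listed for GFI1. Col8a1, of the matrix beneath endothelium, was the densest in the GFI1 list at 63.9 reads per kb (percentile 75.2) and was not listed for GFI1B. Col18a1, whose product yields endostatin, stood at 30.9 reads per kb for GFI1 (percentile 8.89) and 65.8 for GFI1B (percentile 67.7), with no overlap between the fusions.

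Itgb1bp1, the gene of the beta1 tail-binding protein ICAP1, had 60 reads at 30.8 reads per kb for GFI1 (percentile 8.60) and 112 reads at 24.9 reads per kb for GFI1B (percentile 1.79). Its GFI1B interval was also listed under Cpsf3. Itgb3bp had 98 reads at 35.6 reads per kb for GFI1B (percentile 13.5) and was not listed for GFI1, with 2 GFI1B intervals that were also listed under Efcab7 or Pgm2.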
